A study of Rattus norvegicus with 6 samples.

Results

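Macrophages and lymphocytes can be followed in a whole-tissue RNA sample through genes that they express and the surrounding cells largely do not. The genes described here are 43 such leukocyte markers, chosen by name, out of 15645 gene symbols that the array probes could be assigned to. A gene was found by matching the transcript accession of each array spot to the RefSeq gene table, with the older symbols Lyz, Emr1 and Cd79al allowed for Lyz2, Adgre1 and Cd79a. Of the 43, 23 mark myeloid cells, 17 mark lymphoid cells, and 3 (Ptprc, Coro1a and Laptm5) are expressed across leukocytes.

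The tissue was renal cortex of male Sprague-Dawley rats (Crl:CD(SD), obtained at 5 weeks of age; no genetic change is named). The study set 3 rats given chlorothalonil, a chlorinated aromatic fungicide, against 3 rats given corn oil. Dosing lasted 4 weeks in both groups, and the chlorothalonil dose was 500 mg/kg/day. One array in 1 colour was run per animal, so n = 3 per group throughout. The sample named here as chlorothalonil replicate 3 is chlorothalonil by its title, treatment and dose, but its source name states ethylenediamine dihydrochloride. It was kept, and the main results are also given without it. All corn oil arrays were on one slide and scan and all chlorothalonil arrays on another, so slide, scan and treatment cannot be told apart.

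Resident macrophages lie between the tubules of a healthy kidney and depend on signalling through the receptor encoded by Csf1r. They make the 3 chains of complement C1q and take up immune complexes through Fc receptors, whose activating members signal through the adaptor Fcer1g. They degrade what they take up in lysosomes, and present peptides on class II molecules. T lymphocytes are recognised by the CD3 chains, which carry the signal of the T cell receptor to the kinases Lck and Zap70, and by the coreceptors CD4 and CD8. In rats CD4 is also found on macrophages, and class II genes are also expressed by dendritic and B cells. In bulk tissue, fewer cells of a type and less RNA per cell cannot be told apart.

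Each array held 61537 probes other than controls, of which 38234 to 41711 (62.1% to 67.8%) were well above background. The scanner marked 0 spots as saturated and between 0 and 9 per array as outliers. Levels are given as log2 of the processed signal minus the 75th percentile of the same array. A level above 0 is therefore brighter than that percentile, and levels of different probes are not comparable with one another. The labelled tissue carried its expected markers: 10 of 10 proximal tubule genes and 5 of 5 glomerular genes met the detection requirement given next.

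Of the 43 markers, 40 had at least 1 matched probe, in 68 matched probes in all, and 33 entered the test. A probe was required to be well above background in every rat of the one group or the other. Ms4a7, Cd79a and Ighm matched no probe. A further 7 did not meet the requirement. Cd163, the haemoglobin scavenger receptor, was not well above background on any array with any of its 3 probes, and its spots were at most 1.5 times the local background. Its brightest probe read -7.59, -7.49 and -6.86 with corn oil and -7.78, -7.54 and -7.54 with chlorothalonil. RT1-Ba, a class II alpha chain, was not well above background on any array either, at -6.81, -7.58 and -4.80 with corn oil and -7.73, -7.74 and -7.57 with chlorothalonil. The same held for Cd5, a T cell surface receptor, at -7.18, -6.09 and -5.94 with corn oil and -6.90, -5.82 and -6.13 with chlorothalonil. For these 3 genes no difference between the groups could be measured.

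The other 4 were detected on some arrays. Itgam, the integrin alpha chain of complement receptor 3, was above background on 1 corn oil and 1 chlorothalonil array, and read -5.51, -5.46 and -5.77 with corn oil and -6.95, -6.12 and -5.46 with chlorothalonil. Cd2, a T cell adhesion receptor, was above it on 1 corn oil and 2 chlorothalonil arrays, and read -6.37, -4.86 and -4.86 with corn oil and -4.86, -6.08 and -4.81 with chlorothalonil. Cd79b, a signalling chain of the B cell receptor with an immunoreceptor tyrosine-based activation motif (ITAM), was also above it on 1 corn oil and 2 chlorothalonil arrays, and read -5.49, -5.02 and -4.68 with corn oil and -4.89, -5.77 and -4.13 with chlorothalonil. The groups overlapped for all 3 genes. Cd3e, the epsilon chain of CD3, was above background on 2 corn oil arrays and on no chlorothalonil array. Its levels were -5.06, -4.99 and -4.76 with corn oil and -5.42, -5.58 and -5.35 with chlorothalonil. The groups did not overlap, and the mean was 0.52 higher with corn oil on the log2 scale, from spots at most 2.33 times background. It was not tested in the main comparison. With no filter on dim probes, its limma adjusted p was 0.175. No B cell marker entered the test, so the lymphoid values below concern T and cytotoxic cells. The widely used macrophage markers Cd163 and Itgam contributed no value, and the myeloid values rest on the other 19 genes.

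**Figure D1:**
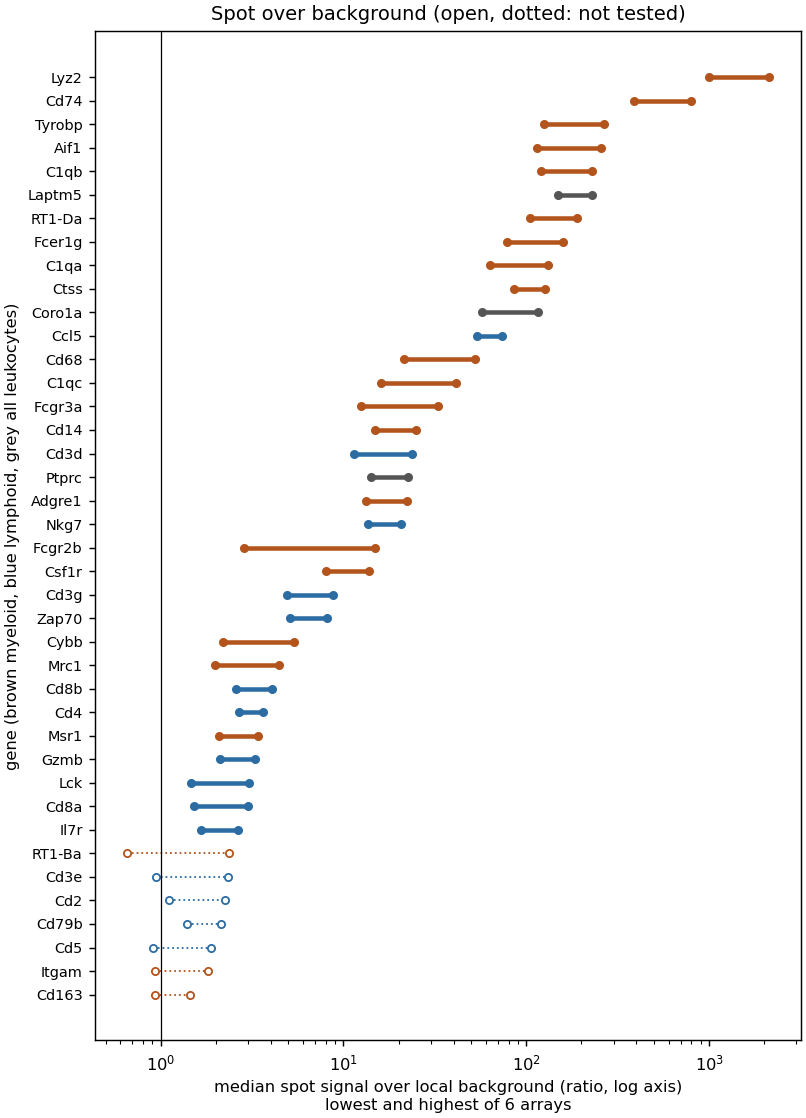
Median spot signal divided by local background (log axis) for the 40 markers with a probe; each line runs from the lowest to the highest of the 6 arrays, brown for myeloid, blue for lymphoid and grey for markers of all leukocytes. The 7 markers that were not tested (open points, dotted) lie at or below 2.38 times background on every array, and Lyz2, the brightest, runs from 1000 to 2110 times background.

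None of the 33 tested markers differed between the groups at an adjusted p under 0.05 (limma over all 29115 features, Benjamini-Hochberg): 0 were higher and 0 lower with chlorothalonil. Over all features 909 passed, or 3.12%, with 378 higher (1.3%) and 531 lower (1.82%). At an unadjusted p under 0.05, 1 of the 33 passed (Adgre1), against 19.7% of all features. The 3 corn oil arrays did not overlap with the 3 chlorothalonil arrays for 2 of the 33 (Adgre1 and Cd74, both lower), against 27.7% of all features (4085 lower and 3972 higher). The log2 fold change, chlorothalonil minus corn oil, lay between -0.20 and 0.20 for 26 of 33, and for 18788 of all 29115 features. It was above 0 for 12 of the 33 and below 0 for 21, beside 14798 and 14317 of all features. Its median was -0.05 over all tested markers, -0.07 over the 19 myeloid and -0.01 over the 11 lymphoid genes, beside 0.00 over all features.

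These values bound the change more loosely than they would for a typical gene. The median standard error of the fold change was 0.19 over the members and 0.10 over all features. A marker near that median had a 95% interval such as that of Tyrobp, whose fold ran from 0.738 to 1.52. With each array left out in turn, 0 members passed the adjusted threshold. The share of all features that passed was 1.33% when corn oil replicate 1 was left out and 0.613% when chlorothalonil replicate 3 was.

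**Figure D2:**
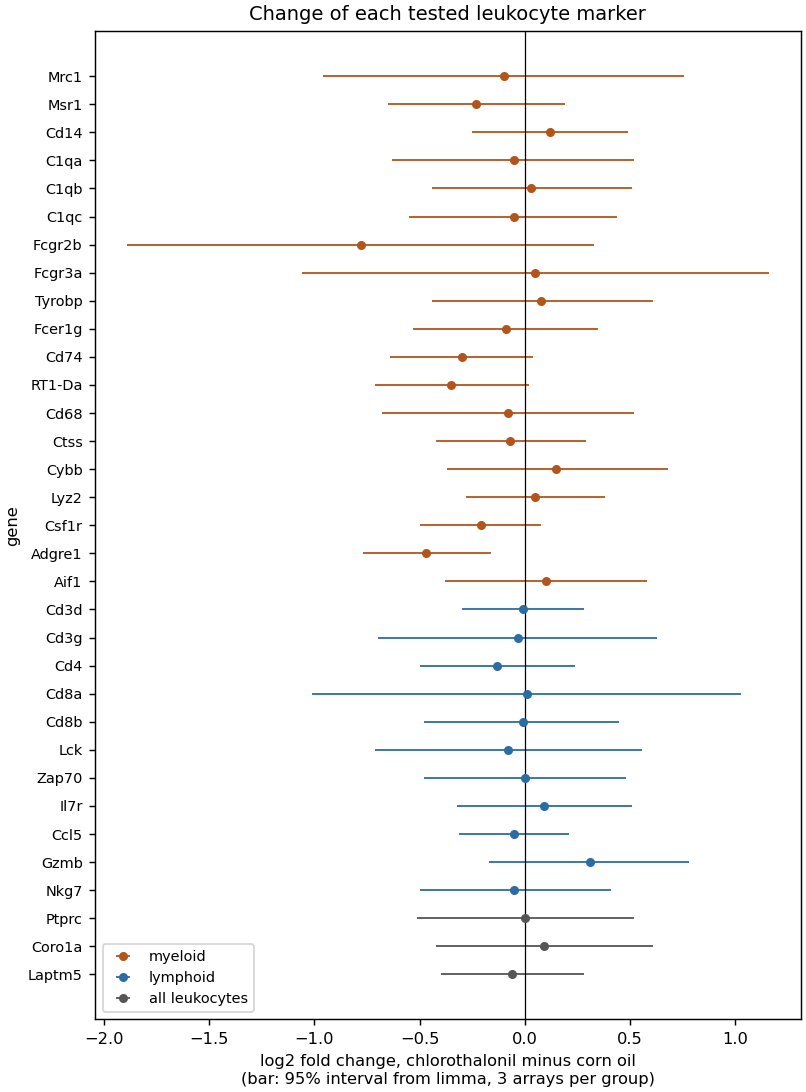
Log2 fold change of chlorothalonil minus corn oil for the 33 tested markers, in the order of their roles, with the 95% interval from limma (3 arrays per group); brown is myeloid, blue lymphoid and grey all leukocytes. The interval of Adgre1, from -0.77 to -0.16, is the one that does not include 0.

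Adgre1 encodes F4/80, an adhesion G protein-coupled receptor used as a macrophage surface marker. Its levels were 0.12, 0.12 and -0.22 with corn oil and -0.32, -0.49 and -0.57 with chlorothalonil. All 3 chlorothalonil arrays were below all 3 corn oil arrays. The mean was 0.01 ± 0.20 with corn oil and -0.46 ± 0.12 with chlorothalonil (SD, n = 3). The log2 fold change was -0.47 ± 0.12 (SE), which is 0.723 times the corn oil level, with an unadjusted p of 0.00971 and an adjusted p of 0.123 (limma). Over the 16 other settings tried, the fold change ran from -0.58 to -0.41 and the adjusted p from 0.0815 to 0.278. It was -0.42 without chlorothalonil replicate 3. A single probe was matched to this gene.

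Its neighbours among the surface receptors and other macrophage markers did not share that separation. Csf1r, the receptor for the growth factors CSF1 and IL34, had levels of -1.17, -0.81 and -0.88 with corn oil and -1.28, -1.14 and -1.06 with chlorothalonil. The groups overlapped through corn oil replicate 1, and the difference was -0.21 ± 0.12 (SE; adjusted p = 0.397, limma). Its other probe gave 0.02. Aif1, the cytoplasmic calcium-binding protein also called IBA1, had levels of 2.81, 3.50 and 3.21 with corn oil and 3.26, 3.10 and 3.46 with chlorothalonil. The corn oil values enclosed the chlorothalonil values, and the 3 probes gave fold changes from 0.00 to 0.10.

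The 3 complement C1q chains, which are encoded side by side and assemble into the recognition unit of the classical pathway, gave nearly equal group means. C1qa had levels of 1.67, 2.60 and 2.21 with corn oil and 2.14, 2.01 and 2.18 with chlorothalonil. C1qb had levels of 2.90, 3.64 and 3.38 with corn oil and 3.24, 3.44 and 3.32 with chlorothalonil. C1qc had levels of -0.07, 0.72 and 0.38 with corn oil and 0.23, 0.37 and 0.26 with chlorothalonil. In all 3 genes corn oil replicate 1 was the lowest and corn oil replicate 2 the highest of the 6 arrays, and the chlorothalonil arrays lay between them. The fold changes were -0.05, 0.03 and -0.05, with standard errors of 0.23, 0.19 and 0.20. The second probe of each gene gave -0.17, 0.04 and 0.00.

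The Fc receptors and the ITAM adaptors followed. Tyrobp (DAP12), an ITAM-bearing adaptor, had levels of 3.02, 3.82 and 3.57 with corn oil and 3.57, 3.42 and 3.68 with chlorothalonil. Fcer1g, the common gamma chain of Fc receptors and also an ITAM adaptor, had levels of 2.55, 3.17 and 2.92 with corn oil and 2.92, 2.58 and 2.86 with chlorothalonil. Both genes were again lowest in corn oil replicate 1 and highest in corn oil replicate 2, and their fold changes were 0.08 ± 0.21 and -0.09 ± 0.18 (SE). Fcgr3a, an activating receptor for immunoglobulin G that needs Fcer1g at the cell surface, varied widely, at -0.37, 1.09 and 0.65 with corn oil and 0.92, -0.14 and 0.74 with chlorothalonil. Its fold change was 0.05 with a 95% interval from -1.06 to 1.16. Its sequence is close to that of other low-affinity Fc gamma receptors, and how far this probe also takes up their signal was not tested.

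Fcgr2b, the inhibitory member of the same receptor family, had the largest fold change among the tested markers, and its 2 probes disagreed. The brighter probe read -2.41, -2.59 and -0.93 with corn oil and -2.98, -2.50 and -2.79 with chlorothalonil, a difference of -0.78 ± 0.45 (SE; adjusted p = 0.401, limma). The high corn oil value came from replicate 3. The other probe read -2.60, -2.39 and -2.20 with corn oil and -2.37, -2.21 and -2.82 with chlorothalonil, a difference of -0.07. Without corn oil replicate 3 this other probe was the brighter, and the gene's fold change was 0.03.

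Among the lysosomal, oxidase and lysozyme genes, Cd68, a lysosomal membrane glycoprotein, had levels of 0.45, 1.33 and 1.11 with corn oil and 1.03, 0.66 and 0.95 with chlorothalonil. Ctss, the lysosomal protease cathepsin S that trims the class II invariant chain, had levels of 2.10, 2.62 and 2.46 with corn oil and 2.35, 2.22 and 2.41 with chlorothalonil. Cybb, the catalytic subunit of the phagocyte oxidase, had levels of -3.50, -2.88 and -2.70 with corn oil and -2.75, -2.95 and -2.93 with chlorothalonil. Corn oil replicate 1 was the lowest array for these genes too, and their fold changes were -0.08, -0.07 and 0.15. Lyz2, the macrophage lysozyme, did not show that low array: it read 6.24, 6.10 and 6.30 with corn oil and 6.12, 6.14 and 6.54 with chlorothalonil. Its second probe was also highest in chlorothalonil replicate 3, at 5.04. The fold change was 0.05 with that array and -0.09 without it.

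Of the scavenger and pattern receptors, Cd14, the lipopolysaccharide coreceptor, had levels of -0.57, -0.47 and -0.58 with corn oil and -0.31, -0.20 and -0.75 with chlorothalonil, a fold change of 0.12 ± 0.15 (SE). Msr1, the class A scavenger receptor, had levels of -4.14, -3.66 and -3.66 with corn oil and -4.01, -4.26 and -3.89 with chlorothalonil, a fold change of -0.23 ± 0.17. Mrc1, the mannose receptor, was even across corn oil at -2.85, -2.84 and -2.93 and uneven across chlorothalonil at -3.29, -2.14 and -3.48. Without chlorothalonil replicate 2 its fold change was -0.51 (adjusted p = 0.112, limma), against -0.10 with it.

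**Figure D3:**
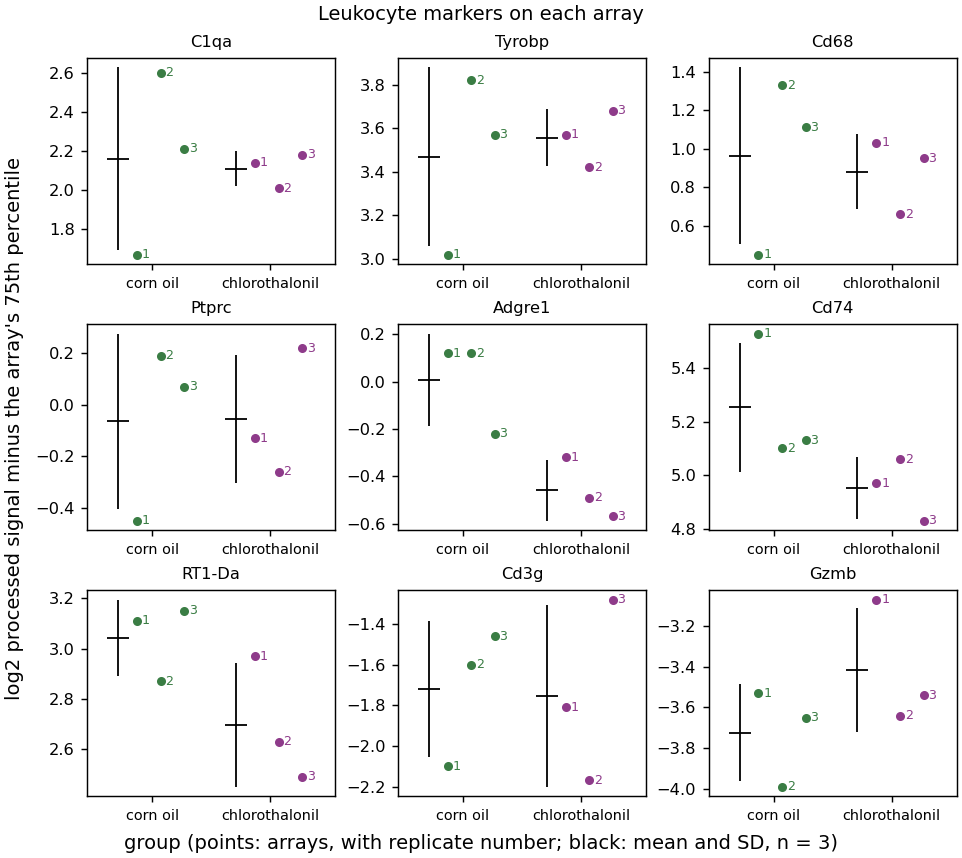
Level of 9 markers on each array (log2 processed signal minus the array's 75th percentile; each panel has its own vertical scale), with replicate numbers beside the points and the mean and SD of each group in black (n = 3). C1qa, Tyrobp, Cd68 and Ptprc are lowest in corn oil replicate 1, whereas Cd74 is highest there at 5.53; Adgre1 and Cd74 are the panels without overlap between groups.

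The low level of corn oil replicate 1 ran through the list. That array was the lowest of the 6 for 17 of the 33 tested markers, or 51.5%, against 16.7% of all features. Corn oil replicate 2 was the highest for 18, against 17.2% of all features. The 17 were C1qa, C1qb, C1qc, Fcgr3a, Tyrobp, Fcer1g, Cd68, Ctss, Cybb, Aif1, Cd3d, Cd4, Cd8a, Zap70, Ptprc, Coro1a and Laptm5. Among them 9 had several usable probes, and in 7 of the 9 every usable probe was lowest in that rat. In Cd4 1 of 2 probes was, and in Ptprc 4 of 5. The pattern was noticed in these data, and no test was made of it.

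As each gene's deviation from its own mean over the 6 arrays, the median over the 33 markers was -0.24, 0.25 and 0.08 in the 3 corn oil rats and 0.00, -0.13 and 0.03 in the 3 chlorothalonil rats. The corn oil medians therefore spanned 0.49 and the chlorothalonil medians 0.15, and the second range lay inside the first. The C1q chains spanned 0.83 and 0.13 in the same way. The SD over replicates was larger with corn oil for 26 of 33 markers, and for 15434 of 29109 features. The median SD of the markers was 0.30 with corn oil and 0.18 with chlorothalonil, beside 0.12 and 0.11 over all features.

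The medians moved with the control rat left out. Without corn oil replicate 1, 29 of the 33 fold changes were below 0 and the myeloid median was -0.26, against 0.01 over all features. The groups then did not overlap for 11 of 33 (10 lower, 1 higher), against 38.6% of all features. Csf1r (-0.32), Cd4 (-0.29), Msr1 (-0.39) and Adgre1 (-0.41) had an unadjusted p under 0.05, which 18.2% of all features had, and none passed after adjustment (smallest adjusted p = 0.201, limma). Without corn oil replicate 2 instead, 22 of 33 were above 0, and both medians turned to the other sign, at 0.05 for myeloid and 0.04 for lymphoid genes. Without chlorothalonil replicate 3, 23 of 33 were below 0 and the medians were -0.09 for myeloid and -0.07 for lymphoid genes. The groups then did not overlap for 3 of 33, against 38.2% of all features, and 2 (Cd14 and Adgre1) had an unadjusted p under 0.05, against 16.8%. No marker's adjusted p (limma) was under 0.202 in that setting.

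**Figure D4:**
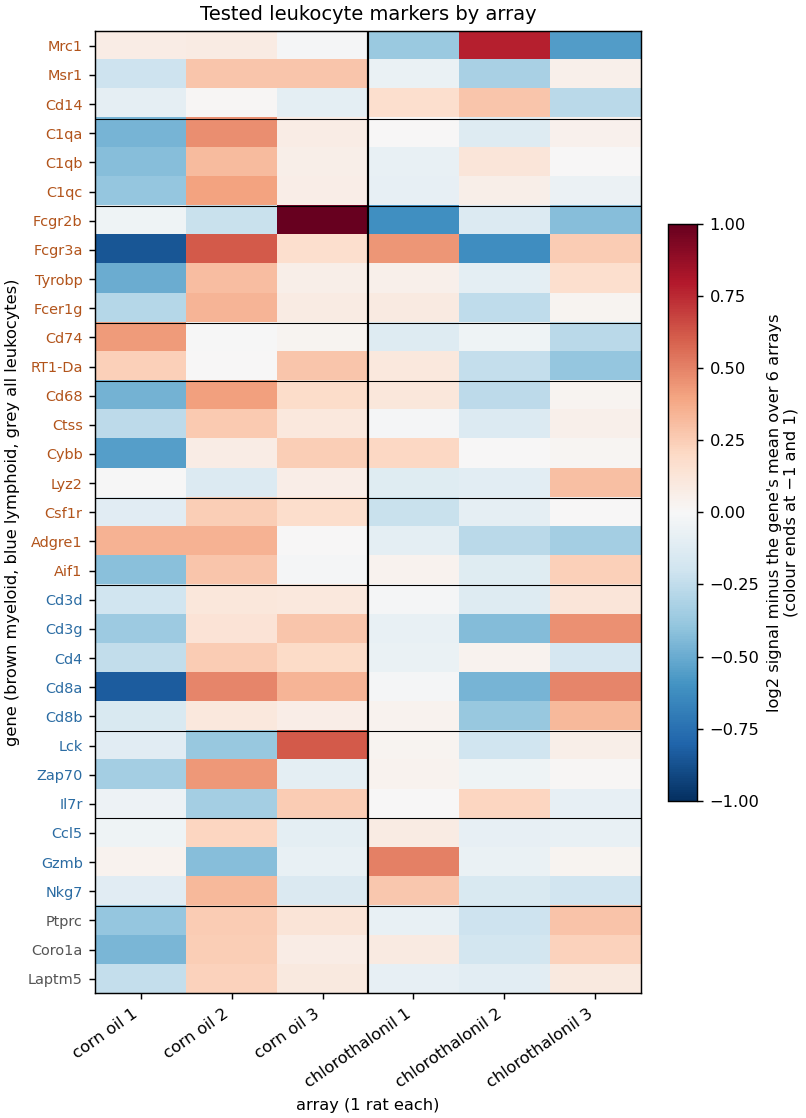
Heat map of the 33 tested markers (rows, ordered by role and separated by lines) on the 6 arrays (columns); colour is the log2 signal minus the gene's mean over the 6 arrays, blue below and red above, ending at -1 and 1. The corn oil replicate 1 column is blue for most genes and red for Cd74, RT1-Da and Adgre1.

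Markers of other tissue elements were set beside this pattern. Of 5 fat markers 3 were tested: Fabp4 was lowest in corn oil replicate 1 (-5.56, against -4.66 to -2.21 on the other arrays), and so was Cidec (-2.58), but Adipoq was highest there (-0.27). Leptin (Lep) was not well above background, and Plin1 matched no probe. The summed linear signal of the fat markers, in units of the array's 75th percentile, was 1.02 to 1.48 with corn oil and 1.10 to 1.74 with chlorothalonil. The brightest probes of a list weigh most in such a sum. Of 5 lymph node and follicle markers 4 were tested, and 3 were lowest in corn oil replicate 1, but Ccl21 was highest there (0.56). Among the 3 was Cxcl13, the B cell-attracting chemokine, at -0.71, 1.29 and 1.03 with corn oil and -0.67, 0.38 and 1.16 with chlorothalonil. The summed signal of the 4 was 3.18 to 4.92 and 2.95 to 4.98, and Cr2, a marker of follicular dendritic and B cells, was not well above background. The 5 glomerular markers were lowest within the corn oil group in replicate 2, and their sum was 25.8 to 31.9 and 28.0 to 36.3. The part of these tissue elements in the leukocyte marker levels was not tested.

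Red blood cell transcripts separated by group in the main comparison, without passing the test there. Of 5 listed, 4 were tested, and all 4 were higher on each chlorothalonil array than on any corn oil array, with a median fold change of 0.26. Over all features 27.7% were without overlap. Of the 4, 0 passed the adjusted threshold (3.12% of all features did) and 4 passed unadjusted (19.7% of all features did). Without chlorothalonil replicate 3 the median was 0.25 and the groups still did not overlap for 4 of 4, against 38.2% of all features. With quantile normalization the median was 0.15. The groups then did not overlap for 2 of 4 (Alas2 and Slc25a37), against 28.3% of all features. With normexp background correction 2 of the 4 passed the adjusted threshold, as did 1325 of all 29115 features. With a trended robust variance prior 2 of the 4 also passed, as did 1315 of all features. Hba-a1 (alpha globin) read 8.34, 8.38 and 8.28 with corn oil and 8.56, 8.66 and 8.58 with chlorothalonil. The summed signal of the 4 was 475 to 497 with corn oil and 556 to 602 with chlorothalonil, and Hba-a2 matched no probe. Hba-a1 and Hbb weigh most in this sum, with mean corn oil levels of 8.33 and 7.33, against 0.44 for Alas2 and -1.89 for Slc25a37. Platelet markers (2 of 4 tested) summed to 0.95 to 1.23 and 0.947 to 1.5. The part of blood in the leukocyte marker levels was not tested.

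The class II genes ran against the other myeloid markers in corn oil replicate 1. Class II molecules carry peptides to CD4 T cells; RT1-Da, RT1-Bb and RT1-Db1 encode chains of the 2 rat molecules, and Cd74 encodes the invariant chain that fills the groove until Ctss and related proteases remove it. Class II chain promoters are known to carry the Y box, an inverted CCAAT sequence bound by NF-Y, and to need the coactivator Ciita. The Y box was searched as CTGATTGG on both strands of each RefSeq promoter (250 bases before to 50 after the start, build GRCr8). It was present in 4 of 4 class II chain promoters (RT1-Da, RT1-Ba, RT1-Bb and RT1-Db1), in 0 of 2 promoters found for RT1-DMa, RT1-DMb and RT1-DOb, in 1 of 14 promoters of the other myeloid markers (Cd68), in 0 of 13 lymphoid ones, and in 3.5% of all 33469 promoters. These letters were not in the Cd74 promoter window. The 150 bases before the start are shown for the 3 chains that were measured, as examples of this element; capitals mark the Y box, which begins 52, 64 and 83 bases before the start. They lie at chr20:4515265-4515414 (plus strand), chr20:4604119-4604268 (minus strand) and chr20:4560163-4560312 (minus strand).
RT1-Da: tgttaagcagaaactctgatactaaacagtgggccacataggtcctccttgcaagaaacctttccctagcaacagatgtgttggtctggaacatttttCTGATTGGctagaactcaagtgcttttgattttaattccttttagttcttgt
RT1-Bb: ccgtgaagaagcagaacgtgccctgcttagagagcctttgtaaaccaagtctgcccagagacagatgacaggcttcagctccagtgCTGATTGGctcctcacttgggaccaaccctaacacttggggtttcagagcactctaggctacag
RT1-Db1: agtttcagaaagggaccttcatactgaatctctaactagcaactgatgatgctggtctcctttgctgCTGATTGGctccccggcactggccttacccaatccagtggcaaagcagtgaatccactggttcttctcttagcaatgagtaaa

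Cd74 read 5.53, 5.10 and 5.13 with corn oil and 4.97, 5.06 and 4.83 with chlorothalonil. The groups did not overlap, though corn oil replicate 2 and chlorothalonil replicate 2 lay close, and the fold change was -0.30 ± 0.14 (SE; adjusted p = 0.305, limma). RT1-Da read 3.11, 2.87 and 3.15 with corn oil and 2.97, 2.63 and 2.49 with chlorothalonil. The groups overlapped through chlorothalonil replicate 1, and both probes gave -0.35 (adjusted p = 0.277, limma). Without chlorothalonil replicate 3 the fold changes were smaller, at -0.24 for Cd74 and -0.24 for RT1-Da.

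The class II genes outside the 43 markers had fold changes on the same side. RT1-Bb gave -0.30, RT1-Db1 -0.53, the peptide-loading chains RT1-DMa and RT1-DMb -0.22 and -0.19, their regulator RT1-DOb -0.92, and Ciita -0.41. All 8 class II genes, members included, were below 0, with a median of -0.32. Over all features 14317 of 29115 were below 0. Of the 8, 0 passed the adjusted threshold (3.12% of all features did) and 1 (RT1-DOb) passed unadjusted (19.7% did). The groups did not overlap for 1 of the 8 (Cd74), against 27.7% of all features. Without chlorothalonil replicate 3 all 8 were below 0, the median was -0.24 and 0 passed unadjusted, against 16.8% of all features. The groups then did not overlap for 1 of 8, against 38.2%. Without corn oil replicate 1 the count below 0 was 7 and the median was -0.28, with no overlap for 2 of 8 against 38.6%. Without chlorothalonil replicate 1 the median was -0.46 and the groups did not overlap for 6 of 8, against 36.0% of all features. Without corn oil replicate 2 it was -0.39, with 4 of 8 against 36.9%. Without corn oil replicate 3 it was -0.36, with 2 of 8 against 38.0%, and without chlorothalonil replicate 2 -0.32, with 2 against 36.1%. In each of these fits 0 passed the adjusted threshold. RT1-DOb read -2.19, -1.81 and -1.29 with corn oil and -2.19, -2.82 and -3.04 with chlorothalonil, and its fold change without replicate 3 was -0.74. The median deviation of the 8 genes was 0.44, 0.00 and 0.14 in the corn oil rats and 0.05, -0.19 and -0.34 in the chlorothalonil rats. Corn oil replicate 1 was the highest of the 6 arrays for 5 of the 8, and chlorothalonil replicate 3 the lowest for 5. RT1 genes are polymorphic and have close relatives, so that the probes of a gene can differ: the 5 probes of RT1-Db1 gave from -0.89 to -0.17.

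**Figure D5:**
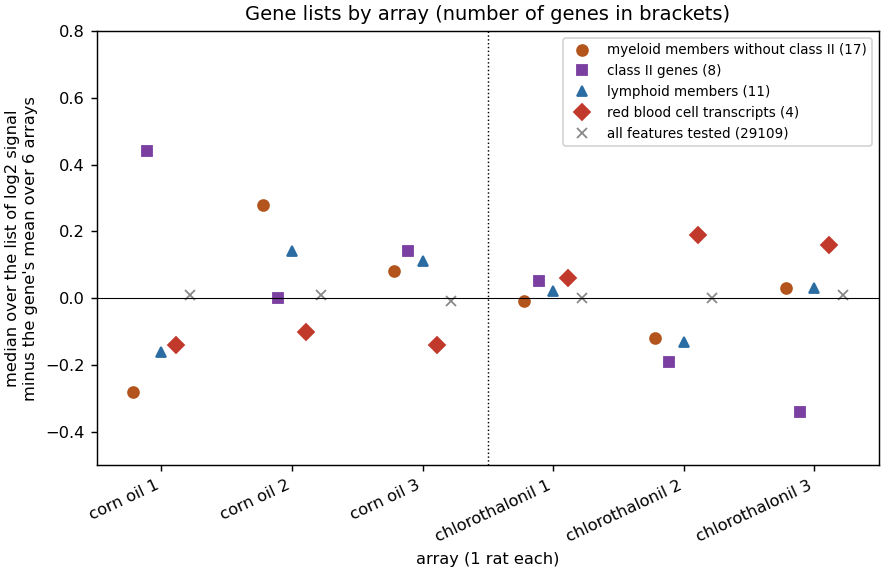
Median over each gene list of the log2 signal minus the gene's mean over 6 arrays, by array; the number of genes is in brackets. In corn oil replicate 1 the 17 myeloid markers without class II are at -0.28 and the 8 class II genes at 0.44, and the red blood cell transcripts are above 0 on all 3 chlorothalonil arrays.

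The promoters of the other myeloid markers were searched for the core of the site of PU.1, the ETS-family factor of macrophages and B cells, as GAGGAA on both strands (TTCCTC when read on the other). It was present in 11 of 14 of these promoters (78.6%), in 5 of 13 lymphoid promoters (38.5%), and in 27.6% of all. The core was also in 2 of 3 promoters of the genes of all leukocytes, in 1 of 4 class II chain promoters (RT1-Bb), and in the Cd74 promoter. A promoter entry existed for 33 of the 43 genes. Shown are C1qb (chr5:154407828-154407977, minus strand) and Ctss (chr2:185775246-185775395, plus strand), which were lowest in corn oil replicate 1, and Lyz2 (chr7:54798012-54798161, minus strand), which was not; capitals mark the core, which begins 90, 15 and 46 bases before the start. The same letters were present in all of these examples, and any part of them in the array pattern was not tested.
C1qb: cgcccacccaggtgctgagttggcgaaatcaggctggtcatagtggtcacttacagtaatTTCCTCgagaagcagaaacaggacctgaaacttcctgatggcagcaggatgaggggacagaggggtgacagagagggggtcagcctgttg
Ctss: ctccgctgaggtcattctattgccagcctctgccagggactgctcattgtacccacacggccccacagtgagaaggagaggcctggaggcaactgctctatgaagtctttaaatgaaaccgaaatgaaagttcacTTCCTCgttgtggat
Lyz2: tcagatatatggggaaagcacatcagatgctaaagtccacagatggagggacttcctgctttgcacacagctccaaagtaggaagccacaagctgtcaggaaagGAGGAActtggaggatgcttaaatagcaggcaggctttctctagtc

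Of the 11 lymphoid markers tested, 10 had a fold change between -0.20 and 0.20, as did 18788 of all 29115 features. Cd3d, the ITAM-bearing delta chain of CD3, read -0.53, -0.21 and -0.22 with corn oil and -0.33, -0.45 and -0.20 with chlorothalonil. Cd3g, the gamma chain, read -2.10, -1.60 and -1.46 with corn oil and -1.81, -2.17 and -1.28 with chlorothalonil. The groups overlapped for both, and the fold changes were -0.01 ± 0.12 and -0.03 ± 0.27 (SE). Cd4 read -3.45, -2.94 and -3.01 with corn oil and -3.27, -3.17 and -3.37 with chlorothalonil, a fold change of -0.13 ± 0.15.

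The CD8 coreceptor chains and the T cell kinases also overlapped between the groups. Cd8a read -5.11, -3.79 and -3.94 with corn oil and -4.29, -4.74 and -3.79 with chlorothalonil, with a 95% interval of the fold change from -1.01 to 1.03. Cd8b read -3.21, -2.95 and -2.99 with corn oil and -3.02, -3.44 and -2.73 with chlorothalonil. Its 2 probes disagreed, at -0.01 for the brighter and -0.54 for the other. Lck read -4.62, -4.89 and -3.90 with corn oil and -4.49, -4.71 and -4.45 with chlorothalonil. Zap70 read -2.02, -1.25 and -1.78 with corn oil and -1.65, -1.73 and -1.67 with chlorothalonil. The chlorothalonil values of each kinase lay inside its corn oil range. Il7r, the interleukin 7 receptor, was well above background on 2 corn oil and 3 chlorothalonil arrays, read -4.85, -5.15 and -4.55 and then -4.81, -4.59 and -4.89, and its 2 usable probes gave 0.09 and 0.11.

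Among the cytotoxic genes, Gzmb (granzyme B, a protease of killer cell granules) had the highest fold change of the tested markers, at 0.31 ± 0.19 (SE; adjusted p = 0.439, limma). It read -3.53, -3.99 and -3.65 with corn oil and -3.07, -3.64 and -3.54 with chlorothalonil, its groups overlapped, and its 3 probes gave 0.03 to 0.31. Ccl5, a chemokine stored by cytotoxic T cells, read 1.60, 1.87 and 1.56 with corn oil and 1.73, 1.57 and 1.58 with chlorothalonil. Nkg7, a granule membrane protein, read -0.39, 0.05 and -0.42 with corn oil and 0.00, -0.43 and -0.47 with chlorothalonil. Both had a fold change of -0.05, with standard errors of 0.11 and 0.18.

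The 3 genes of all leukocytes repeated the order of the control rats. Ptprc (CD45, the leukocyte tyrosine phosphatase) read -0.45, 0.19 and 0.07 with corn oil and -0.13, -0.26 and 0.22 with chlorothalonil, and its 5 probes gave -0.22 to 0.07. Coro1a, an actin-binding protein, read 1.84, 2.55 and 2.38 with corn oil and 2.39, 2.12 and 2.53 with chlorothalonil. Laptm5, a lysosomal membrane protein, read 2.82, 3.30 and 3.16 with corn oil and 2.98, 2.96 and 3.16 with chlorothalonil. Their fold changes were 0.00 ± 0.21, 0.09 ± 0.21 and -0.06 ± 0.14 (SE).

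Beside the markers, 134 related leukocyte genes in 8 lists were examined, of which 104 were tested; 1 was higher and 1 lower at an adjusted p under 0.05, and 9 passed unadjusted. Over all features 3.12% passed adjusted and 19.7% unadjusted. The lower gene was Cxcl11, an interferon-induced chemokine for activated T cells, in the list of chemokines and receptors (1 lower of 20 tested). It read -0.54, -0.55 and -0.51 with corn oil and -1.18, -1.17 and -1.25 with chlorothalonil, and fell by 0.67 on the log2 scale (SE 0.06; adjusted p = 0.00987, limma). The adjusted p was 0.0452 without chlorothalonil replicate 3, 0.0562 without replicate 1 and 0.0535 without replicate 2 of that group, and ran from 0.00255 to 0.0855 over all settings. The higher gene was Tpsb2, a mast cell tryptase with near-identical relatives, in the list of neutrophil and mast cell genes (1 higher of 7). It read -4.82, -4.80 and -5.01 with corn oil and -3.80, -4.19 and -4.09 with chlorothalonil, 0.85 ± 0.12 (SE; adjusted p = 0.031, limma). Its spots were at most 2.0 times background and its other probe gave -0.14, so the 2 probes disagreed in sign. The call was lost with any 1 array left out: the fold change was -0.04 without chlorothalonil replicate 3 and -0.03 without chlorothalonil replicate 2, where the other probe stood for the gene, and the adjusted p was at least 0.0678 in these fits.

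No gene passed the adjusted threshold in the other 6 lists (unadjusted: 4 of 12 in class II and antigen processing, 1 of 11 in complement and phagocytosis, 1 of 15 in further T, NK and B cell genes, and 0 in the rest). The gene with the smallest p in each follows, with its fold change after the levels; RT1-DOb is given above. C3, the central complement component, read 0.91, 1.14 and 1.04 with corn oil and 0.81, 0.88 and 0.66 with chlorothalonil, -0.25. Ctla4, an inhibitory receptor of T cells, read -4.06, -4.40 and -4.43 with corn oil and -4.85, -4.73 and -4.45 with chlorothalonil, -0.38, and was at most 2.92 times background. Icam1, the endothelial adhesion molecule, read 1.77, 2.05 and 1.88 with corn oil and 1.54, 1.87 and 1.59 with chlorothalonil, -0.23 (0 of 8 tested passed). Ikzf1, a lymphocyte transcription factor, read -5.25, -4.73 and -5.03 with corn oil and -4.38, -4.88 and -4.51 with chlorothalonil, 0.41 (0 of 16). It was well above background on 1 corn oil and 3 chlorothalonil arrays, and at most 1.95 times background. Syk, the kinase that binds ITAM adaptors, read -2.72, -2.04 and -2.18 with corn oil and -2.73, -2.91 and -2.60 with chlorothalonil. Its difference was -0.43 from this probe and -0.05 from the other (0 of 15).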

How the data were processed

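Total RNA of 6 renal cortex samples was hybridised to 1-colour Agilent arrays. Per the file headers, the authors' scanner files hold spot intensities from Agilent Feature Extraction (version 10.7 per the submitters' processing notes), as a processed signal after background subtraction. The deposited value table holds a ratio, the processed signal over 1 constant per array close to its 75th percentile. The array files refer to rn4, so no array coordinates are given. Probe accessions were matched to RefSeq (GRCr8): 28206 of 61537 probes had 1 gene symbol, 0 several and 33331 none.

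Processed signals were log2-transformed after division by each array's 75th percentile over probes other than controls. Outlier spots were left out, a probe had to be measured on 2 arrays per group, and the brightest usable probe stood for a gene. limma 3.58.1 (R 4.3.3; lmFit, eBayes) was fitted over all 29115 features, 11926 of them with a symbol, and p-values were adjusted by Benjamini-Hochberg at 0.05. The fit was checked on simulated data. The design calls the 3 rats per group biological replicates, and their small number limits the precision.

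Values on every array are given for members with an unadjusted p under 0.05, up to 4 members of each role group with the smallest p, ITAM-bearing members and members at background; from each related list, those past the threshold or the one with the smallest p. The members and lists were chosen with earlier results of these data known, and the array pattern and the motifs were chosen after seeing values. Alternatives were quantile and median scaling, normexp (offset 50) on the median spot signal, the deposited table, other filters, the mean of the probes, another variance prior, a replicate block, and leaving out each array.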

Additional observations from a re-analysis of the deposited data

How the results depend on the processing

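Under 16 other settings, 6 of which left out 1 array, 0 members were higher and 0 lower at the adjusted threshold in each. The count with an unadjusted p under 0.05 was 1 of 33 in the main comparison, against 19.7% of all features. It was 2 with normexp, with no filter on dim probes, with a trended robust variance prior and with the replicate block. With an array left out it was 2 to 4. It was 4 without corn oil replicate 1 (18.2% of all features) and 2 without chlorothalonil replicate 3 (16.8%). The count without overlap was 1 with median scaling, 3 with normexp and 3 with no filter. Over all features 28.2%, 29.7% and 29.0% were without overlap in these settings. With an array left out the count was 3 to 11, against 36.0% to 38.6% of all features. The 11 were without corn oil replicate 1, or 33.3% against 38.6% of all features. Of the related genes 1 passed with normexp, with no filter, with probes above background on all arrays and with the mean of the probes, and 0 to 2 with an array left out. All features passing numbered up to 1325, and 112 to 388 with an array left out. The myeloid median ran from -0.26 to 0.053 and the lymphoid median from -0.11 to 0.051 with an array left out.

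With the replicate block 0 of 29115 features, 0 members and 0 related genes passed. Arrays of equal number deviated together with correlations of 0.0948, 0.0177 and 0.0511, and corn oil replicate 2 correlated best with chlorothalonil replicate 3 (0.053), so the numbers were not taken as pairs. The slide block could not be fitted, because each slide holds 1 group.

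The sign of the fold change was kept in every setting for 7 of 33 members and turned in at least 1 setting for 26, in 12 of these only with an array left out. Adgre1, Cd74, RT1-Da, Csf1r, Msr1, Cd14 and Gzmb kept it. With median scaling it became 0.0 for C1qa, 0.042 for Cd3d, 0.018 for Cd3g, 0.039 for Cd8b, 0.052 for Zap70, 0.003 for Ccl5 and 0.007 for Nkg7; that scaling moved the median of all features to 0.06. With normexp it became -0.028 for C1qb, 0.003 for Cd68, -0.117 for Lyz2, 0.016 for Cd4, -0.024 for Cd8a, 0.036 for Cd8b, 0.032 for Lck and -0.016 for Tpsb2. Quantile normalization gave 0.033 for Cd8b and 0.022 for Zap70. The deposited table gave Zap70 0.001. Ptprc was -0.068 from the mean of the probes, and Tpsb2 -0.14 from the filter for all arrays, which took its other probe. The cause of the other turns was not tested. With an array left out the ranges that included both signs were Mrc1 -0.51 to 0.16, C1qa -0.30 to 0.17, C1qb -0.17 to 0.20, C1qc -0.26 to 0.13, Fcgr2b -1.09 to 0.033, Fcgr3a -0.37 to 0.37 and Tyrobp -0.14 to 0.26. They were Fcer1g -0.26 to 0.053, Cd68 -0.34 to 0.10, Ctss -0.21 to 0.045, Cybb -0.084 to 0.31, Lyz2 -0.087 to 0.125, Aif1 -0.083 to 0.26, Cd3d -0.11 to 0.051, Cd3g -0.27 to 0.17 and Cd8a -0.41 to 0.25. The rest were Cd8b -0.18 to 0.17, Lck -0.29 to 0.21, Zap70 -0.17 to 0.22, Il7r -0.057 to 0.24, Ccl5 -0.11 to 0.045, Nkg7 -0.19 to 0.11, Ptprc -0.19 to 0.13, Coro1a -0.11 to 0.24, Laptm5 -0.20 to 0.042 and Tpsb2 -0.045 to 0.88. Low signal over background limits dim genes such as Il7r, Lck, Cd8a and Tpsb2.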
